A study of Mus musculus with 2 samples.

Results

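Clade B serpins are protease inhibitors that work inside cells, and 8 of them were compared between a culture of Tc1 cells and a culture of Tc9 cells. The 8 genes, Serpinb9, Serpinb9b, Serpinb6b, Serpinb6a, Serpinb1a, Serpinb2, Serpinb5 and Serpinb8, were chosen by their gene symbol in the platform annotation, and all 8 had a probe set among the 19505 genes measured. The choice was made with earlier results of these arrays known, and the large differences of Serpinb9 and Serpinb6b were part of those results, so every Tc9 and Tc1 value below is a description and none is tested. Total RNA came from mouse CD8 T cells of spleen and lymph node, activated through CD3 and CD28, and was measured on 1 Affymetrix array of Tc1 cells and 1 of Tc9 cells at day 5. Tc1 cells are the interferon gamma producing type of CD8 T cell, and Tc9 cells are the type that makes interleukin 9. The Tc1 culture was polarized for 3 days with 10 ng/mL recombinant human IL-2. The Tc9 culture was polarized for as long with IL-4 (10 ng/mL), TGF-beta (1 ng/mL) and the XMG1.2 antibody (20 µg/mL), which blocks interferon gamma. Both were then kept for 2 days with 10 ng/mL IL-2. The number of mice behind each culture and their strain, age and sex are not stated in the labels used.

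A serpin inhibits a protease by offering it an exposed loop as bait: the protease cuts the loop, stays covalently bound to the serpin, and both are spent. Clade B members lack a classical secretion signal and stay mostly in the cytosol and nucleus. In cytotoxic lymphocytes they are known for protecting the killer cell from granule proteases that leak into its own cytosol, above all granzyme B, which Serpinb9 inhibits. Other members are best known from neutrophils and macrophages, or from skin and other epithelia.

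With 1 array per culture there is no replicate check, and each difference below describes this pair of arrays. Values are linear probe set intensities as deposited, or their log2, and a difference is log2 Tc9 minus log2 Tc1. Probe sets differ in how well they bind, so signals of different genes are not ranked against each other. A gene was called detectable when its brighter array reached a log2 signal of 6.43, the median of all gene values, and 10147 of the 19505 genes did. Where the dimmer array lay under it, the fold is given as "at least", with 6.43 in place of the dim value. The direction of the difference for such a gene is fixed by the call itself. The 95th percentile of the 5222 control probe sets with neg in their ID was higher than the threshold, at 7.16.

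The second sample is named Tc9 in its title and description but Tc1 in its source name, and its title was followed. On that array Il9 was higher, at intensities of 351 against 28.2 on the Tc1 array, and Ifng was lower, at 189.9 against 622. Tbx21, which encodes the type 1 factor T-bet, was lower as well, at 90.7 against 753. All 7 measured CD8 T cell markers were detectable and within 2-fold, with intensities that summed to 26832 in the Tc1 culture and 24314 in the Tc9 culture. Cd8a itself read 4680 and 3906, the Tc1 array first.

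Serpinb9 and Serpinb6b, both known as granzyme inhibitors, stood far lower on the Tc9 array. Serpinb9b and Serpinb1a were also lower there, from signals nearer the detection threshold. Serpinb6a was close on both arrays, and Serpinb2, Serpinb5 and Serpinb8 were under the threshold on both. Of the 5 detectable members, 4 had measured values at least 2-fold lower on the Tc9 array and 0 at least 2-fold higher. The count of 4 takes in Serpinb9b, and it is 3 with dim values set at the threshold or with the threshold at the control percentile. Over all 10147 detectable genes, 2.79% were at least 2-fold lower and 2.62% at least 2-fold higher, and since the members were partly picked for this contrast, their count is not read against those shares. The median difference of the 8 members was -1.32, and that of all 19505 genes was 0.00453. It was -0.39 when dim values were set at the threshold, where Serpinb9b shrank from -1.73 to -0.40 and the 3 undetectable members carry no difference.

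**Figure D1:**
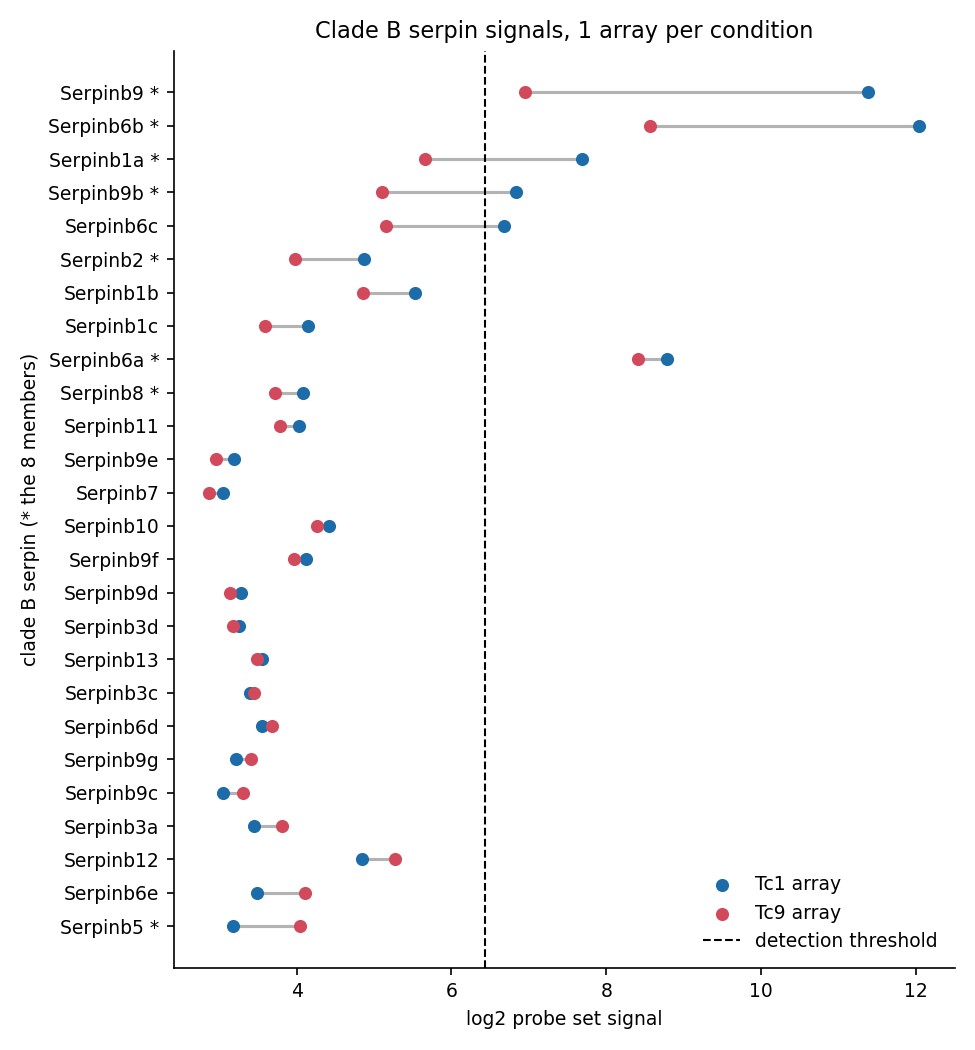
Log2 probe set signal (horizontal axis) of the 26 measured clade B serpins (vertical axis, ordered by difference, the 8 members starred) on the Tc1 array (blue) and the Tc9 array (red), with a grey line joining both values of a gene and a dashed line at the detection threshold of 6.43. The 2 longest lines are those of Serpinb9, from 11.38 to 6.95, and Serpinb6b, from 12.04 to 8.57, and most genes lie left of the threshold on both arrays.

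Serpinb9, also called Spi6 in the mouse and PI-9 in humans, is the inhibitor of granzyme B. Its intensity was 2668 in the Tc1 culture and 123 in the Tc9 culture, log2 signals of 11.38 and 6.95. The Tc1 signal lies well above the threshold, and the Tc9 signal lies just above it but under the 7.16 mark of the controls. The difference of -4.44 makes Serpinb9 21.6-fold lower on the Tc9 array, or at least 18.7-fold lower when 7.16 stands in for the dim value. It was the second lowest difference of all detectable genes. The gene just beyond it was Selp, which encodes P-selectin, at -4.64, and the next 2 were the interferon-inducible Ifi211 at -4.39 and the membrane protein gene Ms4a4c at -4.26. These are the genes most alike in this 1 difference, a likeness over 2 arrays. Ifi211 had a Tc9 log2 signal of 4.20, under the threshold, so its measured difference rests on a dim value.

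Serpinb6b, first described from natural killer cells as NK13, is reported to inhibit mouse granzyme A. Its intensity was 4217 in the Tc1 culture and 379.7 in the Tc9 culture, log2 signals of 12.04 and 8.57. Both lie above the threshold and above the control mark, so neither fold nor direction rests on a dim value. The difference was -3.47, or 11.1-fold lower on the Tc9 array, and 12th lowest among detectable genes. Next beyond it were Ly6c1 at -3.61, a surface protein of effector and memory CD8 T cells, and Gbp2 at -3.67, a guanylate-binding protein. On its other side were Ly6i at -3.47, of the same surface family, and Nos2 at -3.34, the inducible nitric oxide synthase. Serpinb9 and Serpinb6b were thus both far lower on the Tc9 array, unlike Serpinb6a, the close relative of Serpinb6b.

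Serpinb9b, known as SPI-CI and described as an inhibitor of granzyme M, read 114 in the Tc1 culture and 34.3 in the Tc9 culture. In log2 these are 6.83 and 5.10, so the Tc1 value is just above the threshold and the Tc9 value is under it. The measured difference was -1.73, but the signals support no more than at least 1.32-fold lower. Neither value reached the control mark of 7.16.

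Serpinb1a, the monocyte and neutrophil elastase inhibitor, acts on elastase, cathepsin G and proteinase 3. Its intensity was 206 in the Tc1 culture and 50.4 in the Tc9 culture, log2 signals of 7.69 and 5.66. The Tc1 signal passed both the threshold and the control mark, and the Tc9 signal passed neither. The measured difference was -2.03, at least 2.39-fold lower, or at least 1.44-fold with the control mark in place of the dim value.

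Serpinb6a, known as Spi3, inhibits cathepsin G and trypsin-like proteases. Its intensity was 440.2 in the Tc1 culture and 341 in the Tc9 culture, log2 signals of 8.78 and 8.41. Both are clear of the threshold, and the difference of -0.37, or 1.29-fold, is the smallest among the detectable members. No replicate gives a spread to read it against.

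Serpinb2, plasminogen activator inhibitor 2 of activated macrophages, read 29.3 in the Tc1 culture and 15.7 in the Tc9 culture. Serpinb5, or maspin, an epithelial member that does not act as a protease inhibitor in the usual way, read 9.09 and 16.5. Serpinb8, whose human counterpart can inhibit the proprotein convertase furin, read 16.9 and 13.2. All 6 values are under the threshold of 6.43, with the highest at a log2 signal of 4.87, so no fold is given and the order between the arrays has no meaning.

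The dim members have to be read beside the controls. Among genes whose brighter signal lay within 1.5 log2 units above the threshold, the range that holds Serpinb9b and Serpinb1a, 3.07% of 2998 were at least 2-fold lower on the Tc9 array. Among neg control probe sets in this range, 11.8% of 408 were. Differences of the 585 neg controls at or above the threshold ran from -2.42 to 1.61, which takes in the values of Serpinb9b and Serpinb1a, while those of Serpinb9 and Serpinb6b lie beyond it. Of the 7149 genes brighter than this range, where Serpinb9 and Serpinb6b belong, 2.67% were at least 2-fold lower. How much of the Serpinb9b and Serpinb1a differences is of the kind seen in controls was not tested.

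**Figure D2:**
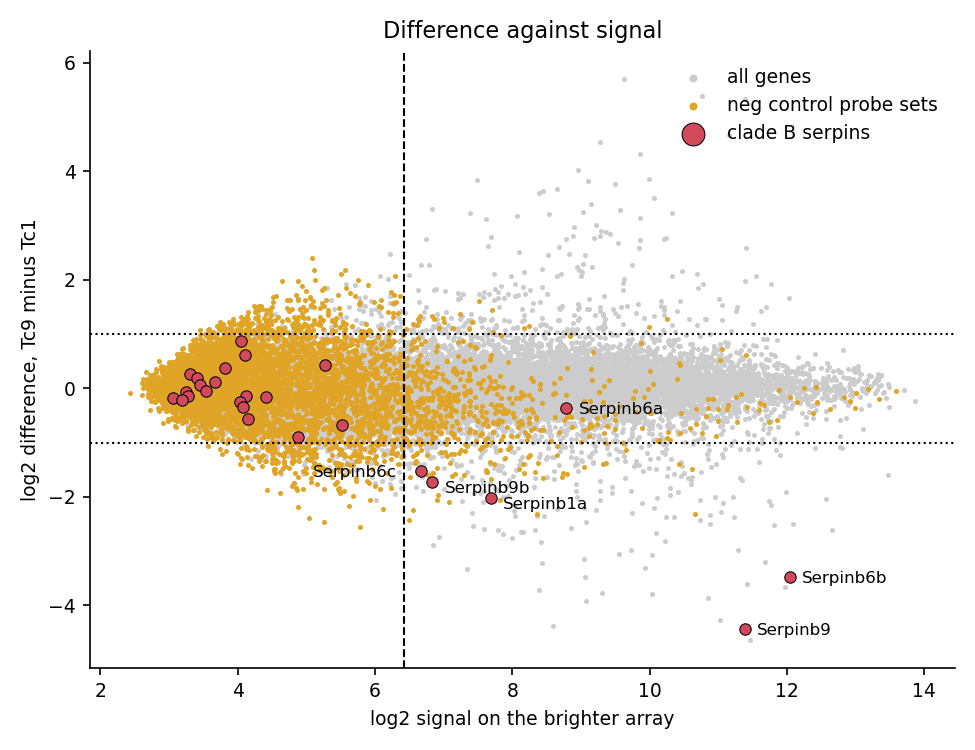
Log2 difference, Tc9 minus Tc1 (vertical axis), against the log2 signal on the brighter array (horizontal axis) for all 19505 genes (grey), the 5222 neg control probe sets (yellow) and the 26 measured clade B serpins (red, named where detectable), with a dashed line at the threshold and dotted lines at 2-fold. Serpinb9 at -4.44 and Serpinb6b at -3.47 lie below the neg controls that reach the threshold, while Serpinb9b, Serpinb6c and Serpinb1a lie in the lower part of the range of those controls.

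The remaining clade B genes were almost all under the threshold. Of 28 listed genes, 26 were measured, and Serpinb3b and Serpinb9h were not analysed here. Only 6 of the 26 were detectable, and 5 of these had measured values at least 2-fold lower on the Tc9 array, 0 at least 2-fold higher. The count of 5 takes in Serpinb9b and Serpinb6c, and it is 3 with dim values set at the threshold or with the threshold at the control percentile. The detectable gene outside the 8 members was Serpinb6c, a close relative of Serpinb6a and Serpinb6b. It read 102 in the Tc1 culture and 35.5 in the Tc9 culture, a difference of -1.52, and was at least 1.18-fold lower. The 20 genes under the threshold on both arrays, among them 3 of the members, had differences between -0.90 and 0.86 and log2 signals of up to 5.53, the highest being Serpinb1b on the Tc1 array. The 26 had a median difference of -0.17, which became 0 once dim values were raised to the threshold. Members of the Serpinb9, Serpinb6, Serpinb1 and Serpinb3 subfamilies are close copies, and a probe set of one can take up RNA of another.

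Mouse clade B genes lie in 2 clusters, and in the gene order of GRCm38.p6 all 6 detectable genes fall in one of them. That cluster, which holds the Serpinb1, Serpinb6 and Serpinb9 genes on chromosome 13, has 15 measured genes with a median difference of -0.37. Of these, 9 were under the threshold on both arrays, so that median rests in part on differences without meaning. Serpinb6b, Serpinb9 and Serpinb9b follow one another in the cluster, and Serpinb1a stands at its near end, with the undetectable Serpinb1c between Serpinb1a and Serpinb6b. None of the measured genes from Serpinb1b to Serpinb6e, which follow Serpinb9b, was detectable. Serpinb6c and Serpinb6a stand side by side at the far end, at -1.52 and -0.37. Of the neighbours outside the cluster, chosen for their position, Wrnip1, the gene of a Werner helicase interacting protein next to Serpinb1a, differed by 0.17. Nqo2, a quinone reductase gene next to Serpinb6a, differed by -0.62. The cluster on chromosome 1, which holds Serpinb2, Serpinb5 and Serpinb8, had 11 measured genes, 0 of them detectable, with a median of -0.08 and a highest log2 signal of 5.27.

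**Figure D3:**
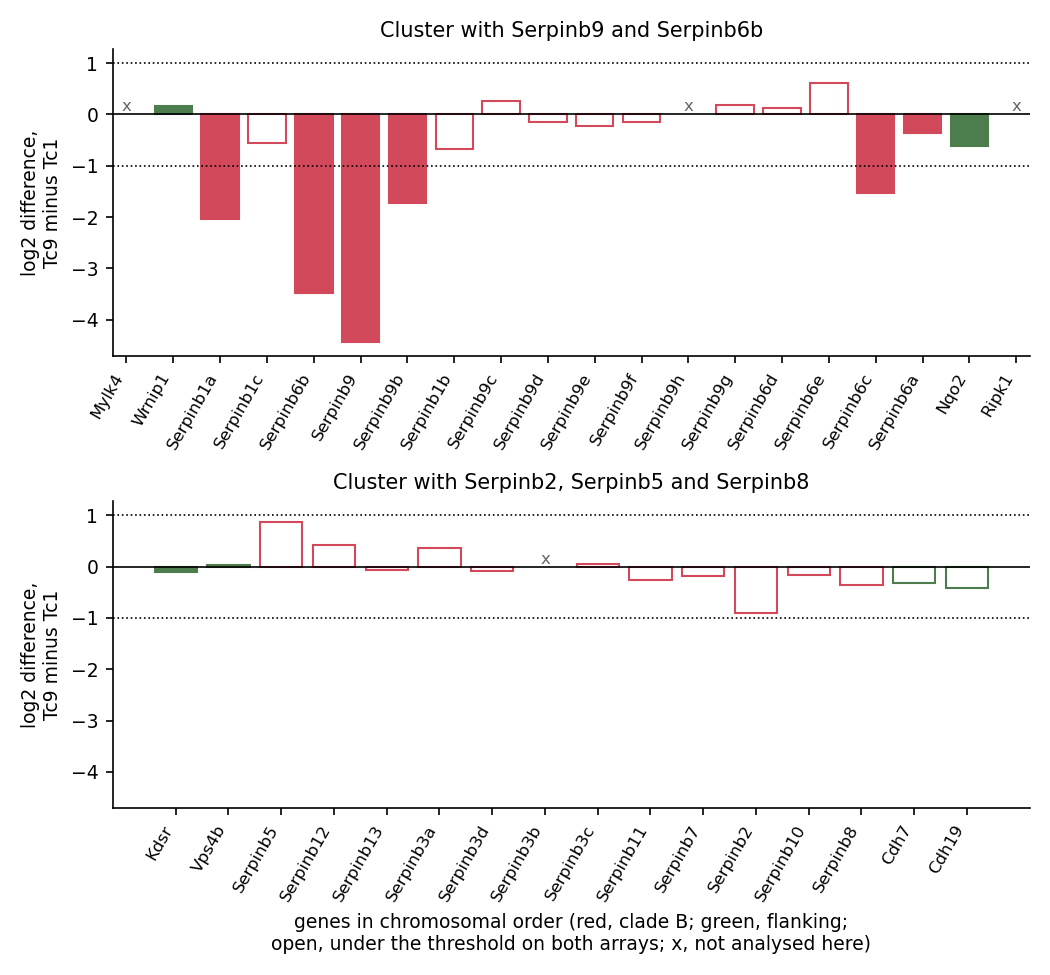
Log2 difference, Tc9 minus Tc1 (vertical axis), for the genes of both clade B clusters in chromosomal order (horizontal axis), with clade B genes in red and the nearest protein-coding genes on each side in green. Filled bars are detectable genes, open bars are under the threshold on both arrays, and x marks genes not analysed here. The upper panel has its lowest bars at Serpinb6b and Serpinb9, which stand side by side, and the lower panel has no filled red bar.

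Promoter windows are shown for Serpinb9 and Serpinb6b, which had the lowest differences, and for Serpinb6a, which was nearly level. Each runs from 250 bases before to 50 bases after a transcription start, from RefSeq on GRCm38.p6, written 5′ to 3′ along the gene. Windows were found for 26 of the 28 clade B genes and 7 of the 8 members, and Serpinb1a has none in the table. Capitals mark matches, on either strand, to 3 motifs. They are the form preferred by STAT6, written as TTC, a gap of 4 bases and GAA, the repeat of the interferon-stimulated response element, written as GAAA, a gap of 2 bases and GAAA again, and AGGTGTGA, a T-box site.

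Serpinb9, chr13:33004291-33004590, plus strand: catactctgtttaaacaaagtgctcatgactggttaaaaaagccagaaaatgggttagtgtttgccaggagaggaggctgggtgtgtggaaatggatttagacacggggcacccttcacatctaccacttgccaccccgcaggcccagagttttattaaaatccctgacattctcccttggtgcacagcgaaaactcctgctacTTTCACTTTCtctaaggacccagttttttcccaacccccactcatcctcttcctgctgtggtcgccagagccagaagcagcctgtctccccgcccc

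Serpinb6b, chr13:32965011-32965310, plus strand: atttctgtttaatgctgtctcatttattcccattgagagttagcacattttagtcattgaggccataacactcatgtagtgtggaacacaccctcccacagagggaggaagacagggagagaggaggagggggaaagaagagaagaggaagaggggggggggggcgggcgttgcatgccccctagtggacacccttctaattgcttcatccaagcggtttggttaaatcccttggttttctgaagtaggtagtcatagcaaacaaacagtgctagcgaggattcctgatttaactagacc

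Serpinb6a, chr13:34002745-34003044, minus strand: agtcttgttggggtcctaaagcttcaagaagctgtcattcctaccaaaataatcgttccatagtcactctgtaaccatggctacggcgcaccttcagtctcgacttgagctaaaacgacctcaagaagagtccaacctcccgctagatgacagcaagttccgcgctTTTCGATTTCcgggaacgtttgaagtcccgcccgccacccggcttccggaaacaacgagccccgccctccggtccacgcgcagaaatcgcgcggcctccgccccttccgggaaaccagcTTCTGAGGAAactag

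The Serpinb9 window has 1 match, TTTCACTTTC, which begins 46 bases before the start and is the response element repeat read on the opposite strand. The Serpinb6b window has 0 matches, which says only that these letters are not in it. The Serpinb6a window has 2, which do not overlap: the response element repeat, read on the opposite strand as TTTCGATTTC, which begins 84 bases before the start, and TTCTGAGGAA, the STAT6 form, from base 36 after it. A second annotated Serpinb6a start, further into the gene, has 0 matches, as does the Serpinb9b window. Neither Serpinb2 window, nor those of Serpinb5 and Serpinb8, has a match. Among all 32851 windows in the table, 6.95% hold the STAT6 form, 3.44% the response element repeat and 1.28% the T-box site. A match is a description of letters and not a bound site, and among the printed windows the most matches are in that of Serpinb6a, whose signal was close on both arrays.

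Gzmb and Gzma, the proteases that Serpinb9 and Serpinb6b act on, had smaller differences than those serpins. Of 10 measured genes for granzymes, perforin and serglycin, 5 were detectable, 3 of them at least 2-fold lower on the Tc9 array and 0 higher. The 10 had a median of -0.65, which became 0 once dim values were raised to the threshold. Gzmb read 11384 in the Tc1 culture and 3779 in the Tc9 culture, 3.01-fold lower, and Prf1, the pore-forming perforin, read 336 and 139, 2.41-fold lower. Gzmc, another granzyme of activated killer cells, read 346 and 37.3 and was at least 4.01-fold lower. Gzma read 857 and 929, a difference of 0.12. Srgn, the proteoglycan that packs granzymes, was as close, at 0.08. Gzmm was under the threshold on both arrays, as were Gzmf, Gzmg, Gzmk and Gzmn, and Gzmd and Gzme were not analysed here.

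Setting each inhibitor against its protease on the same arrays takes out a scaling factor shared by all genes of an array. It does not take out a background offset or a scaling that changes with signal. Serpinb9 differed by -4.44 and Gzmb by -1.59, so the Serpinb9 signal relative to Gzmb was 7.18-fold lower on the Tc9 array. That ratio uses the Tc9 value of Serpinb9, which is above the threshold but under the control mark of 7.16. Serpinb6b differed by -3.47 while Gzma was level, a relative signal 12.0-fold lower. No such ratio is given for Serpinb1a, since its Tc9 value and those of its targets Elane and Prtn3, the elastase and proteinase 3 genes, are under the threshold. The ratios for Serpinb9 and Serpinb6b show unequal differences of RNA signal and nothing of protein or activity. In bulk RNA, fewer cells that express a gene and less of its RNA per cell cannot be told apart.

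Other protease classes had few genes past 2-fold. Of 16 cathepsins and elastase-type proteases, 13 were detectable, 1 of these had measured values at least 2-fold lower and 1 at least 2-fold higher, and the median was 0.09. The lower count is 0 with dim values set at the threshold or with the threshold at the control percentile. Ctsl, a lysosomal cysteine protease, read 99.0 in the Tc1 culture and 218 in the Tc9 culture, 2.20-fold higher, and Ctso, of the same class, was at least 1.49-fold lower. Ctsc, which activates granzymes by trimming them, differed by 0.46, and Elane, the neutrophil elastase gene, by -0.64. Ctsg, which encodes cathepsin G, the target of Serpinb6a and Serpinb1a, was under the threshold on both arrays. Of 7 caspases, 5 were detectable and 1 was at least 2-fold higher: Casp6, an apoptotic caspase, at 465 and 1668, a difference of 1.84. The inflammatory caspases Casp4 and Casp1 differed by -0.78 and -0.25, Casp8 by -0.16, and the median was 0.02. Of 7 plasminogen activation genes, 3 were detectable. Plaur, the urokinase receptor, read 1049.5 and 124 and was the 1 gene of that list at least 2-fold lower, at -3.08. Plau and Plat, the activators that Serpinb2 inhibits, were under the threshold on both arrays. Klk8, a kallikrein, differed by 0.87 and Plgrkt, a plasminogen receptor, by 0.02.

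Protease inhibitors of other families were mixed. Of 25 measured serpins of other clades, 8 were detectable, with 1 at least 2-fold lower and 1 at least 2-fold higher, and a median of -0.12. The lower one, Serpina3f, a clade A serpin of the mouse Serpina3 cluster, read 1088 in the Tc1 culture and 172 in the Tc9 culture, 6.34-fold lower. The higher one, Serpinc1, which encodes antithrombin, read 178 and 503, 2.83-fold higher. Serpina3i and Serpina11 differed by -0.80 and -0.67, and Serpina3g was not analysed here. Of 13 other inhibitors, 6 were detectable, with 0 at least 2-fold lower, 1 as much higher, and a median of -0.14. That gene, Timp2, an inhibitor of metalloproteases, read 85.5 and 584, at least 6.77-fold higher. Cst7, cystatin F, which holds back the cathepsins that mature granzymes, differed by 0.56, Cst3, cystatin C, by -0.26, and Spint1, a Kunitz-type inhibitor, by -0.25. None of the 6 detectable clade B genes was higher on the Tc9 array, and 5 of the 6 are members chosen with earlier results known. Serpinb1a, Serpinb9b and Serpinb6c passed the threshold on the Tc1 array alone, so they could only come out lower on the Tc9 array. All detectable serpins of other clades except Serpinc1 were lower on the Tc9 array too, with a median of -0.48 over those 8. For Serpina3i, Serpina6, Serping1 and Serpini1 that direction was likewise fixed by the threshold. The median of -0.12 over all 25 measured became 0 once dim values were raised to the threshold. The other inhibitors held detectable genes on either side of 0.

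**Figure D4:**
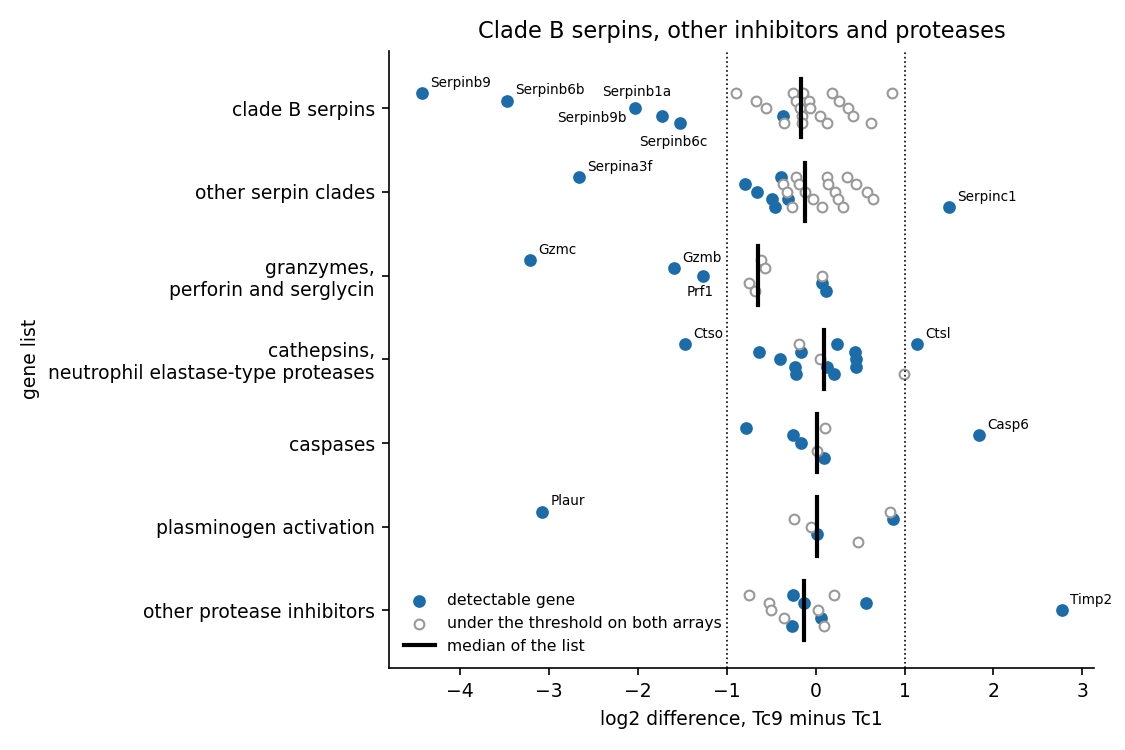
Log2 difference, Tc9 minus Tc1 (horizontal axis), for the genes of each list (vertical axis), with filled points for detectable genes, open points for genes under the threshold on both arrays, black bars at list medians, dotted lines at 2-fold, and names for detectable genes past 2-fold. Serpinb9 at -4.44 and Serpinb6b at -3.47 are the lowest points of the plot, and Timp2 at 2.77 is the highest.

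Markers of other cells that may express clade B serpins were read beside these values. All 7 measured B cell markers were detectable and lower on the Tc9 array by less than 2-fold, except that Ebf1, at -0.01, turned higher under median centring, and their summed intensities were 4417 and 3141. Both measured natural killer cell markers, Ncr1 and Klrb1c, were lower as well but under the threshold on both arrays, with sums of 82.1 and 33.8. Each sum takes in all measured markers of a list, also those under the threshold. Of 8 monocyte and macrophage markers, 3 were detectable, with sums of 992 and 972. These 3 moved in different directions: Lyz2 read 329 and 443, Fcgr3 341 and 186, and Itgam 114 and 99.9, the Tc1 array first. Of 5 neutrophil markers 1 was detectable, with sums of 201 and 265. That marker, Elane, read 89.2 and 57.3, at least 1.03-fold lower. The higher neutrophil sum in the Tc9 culture came from S100a8 and S100a9, under the threshold on both arrays. Of 5 dendritic cell markers, 1, Zbtb46, was detectable and at least 1.33-fold lower, with sums of 182 and 127. Of 6 mast cell and basophil markers 1, Kit, was detectable, at 80.3 and 95.1, while the sums were 266 and 223. Of 6 epithelial markers, 3 were detectable, with sums of 377 and 707. Of these 3, Cdh1, the E-cadherin gene, read 97.6 and 419, Epcam 78.0 and 95.7, and Krt14, in the other direction, 86.9 and 53.6. Cd4 read 645 and 427. No marker reads exactly 0 on such an array, and the part of these cells in the serpin differences was not tested.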

How the data were processed

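Probe set values were available for 1 Tc1 array and 1 Tc9 array. The deposited values are linear intensities from the authors' scanned arrays. Per the labels' protocols, Trizol RNA was biotin-labelled by a whole-transcript sense-target method. How they were background corrected, summarized and normalized is not given in the sources used here. Array medians of 57.2 and 53.1 were close, so the values were log2 transformed without further normalization and without a pseudocount. Of 28846 probe sets, 19572 have 1 gene symbol in the platform annotation, 0 have several and 9274 have none. Where a gene had several, as for 55 genes, the probe set of higher mean log2 signal stood for it. Each member has 1 probe set.

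The members and gene lists were chosen with earlier results of these data known. Named genes were the members, every detectable clade B gene, up to 4 detectable genes per list with the largest absolute difference, 10 known protease or inhibitor partners, 4 label checks and the 2 nearest genes in difference on each side. A few more were named with their values known or for their position. No test of the differences was possible. The calling was tried on simulated data with changes planted only in genes well above the threshold, so that trial does not cover the dim genes. Alternatives were quantile normalization, median centring, other thresholds, dim values at the threshold, a pseudocount of 16, and averaged probe sets. Protein sequences were not used here, and 1 planned motif is not reported here. Python 3.11.15, numpy 2.4.6 and pandas 2.3.3 were used.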

Additional observations from a re-analysis of the deposited data

How the results depend on the processing

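Serpinb9, Serpinb6b and Serpinb1a stayed at least 2-fold lower under all 7 alternatives, with differences from -4.44 to -4.27, from -3.50 to -3.41 and from -2.03 to -1.26. Dropping the filter, moving the threshold to the control percentile and averaging probe sets cannot change these differences, since each member has 1 probe set. With the control percentile in place of its dim value, Serpinb1a was at least 1.44-fold lower, so it does not hold at 2-fold there. Serpinb9 kept the second lowest difference, and the rank of Serpinb6b lay between 8 and 12. Serpinb6a lay between -0.44 and -0.30. The signal of Serpinb9 relative to Gzmb lay between -2.84 and -2.68, and that of Serpinb6b relative to Gzma between -3.59 and -3.53. The dim genes depended on the floor. With dim values at the threshold, Serpinb9b differed by -0.40 and Serpinb6c by -0.24, the median of the members was -0.39 and that of clade B was 0, and 3 clade B genes, all of them members, were at least 2-fold lower. The count was also 3 with the threshold at the control percentile, where Serpinb9b and Serpinb6c are no longer detectable. A pseudocount of 16 gave a member median of -0.94. Quantile normalization, median centring, no filter and averaged probe sets left the counts of members and clade B genes within 1.5 times and their medians within 0.1. Median centring moved all differences by 0.07. Signal over background limits the values of Serpinb9b, Serpinb6c and Serpinb1a, and the number of arrays limits all of them.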
